A study of Mus musculus with 9 samples.

Results

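The 51 genes described here encode the machinery that copies nuclear DNA, measured by RNA sequencing in primary mouse myoblasts, the muscle precursor cells that divide before they fuse into fibres. They were chosen by symbol as genes of origin licensing, origin firing, fork synthesis, fork protection, chromatin assembly and S phase entry, and they are 51 of the 55536 genes in the deposited count table. Each symbol matched 1 Ensembl gene, and all 51 were among the 15720 genes that passed the filter on low counts.

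The study asked whether oxybutynin, an antimuscarinic drug, changes gene expression in proliferating myoblasts that lack Uqcrfs1, the Rieske iron-sulphur protein of mitochondrial complex III. All cells came from Uqcrfs1 floxed mice and were given adenovirus with Cre or GFP, seeded 72 hours later, treated from 24 hours after seeding, and cultured for 5 days more. The groups were uqcrfs1 -/- (KO) cells given 7.5 µM oxybutynin (knockout oxybutynin, KO_OXY), uqcrfs1 -/- (KO) cells given an equal volume of DMSO (knockout vehicle, KO_DMSO), and uqcrfs1 +/+ (floxed) cells, labelled GFP, given DMSO (floxed vehicle, GFP_DMSO), with 3 libraries each. No floxed cells with oxybutynin were among these samples, and the virus goes with the genotype, so an effect of Cre and an effect of the deletion cannot be told apart. The labels do not say whether the libraries of a group came from separate cultures, so the spread that p-values rest on may be technical.

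DNA replication starts when the origin recognition complex, Cdc6 and Cdt1 load the MCM helicase onto DNA in G1 phase. The Dbf4-dependent kinase Cdc7 and cyclin E with its kinase then fire the origins, Cdc45 and GINS join the helicase, and polymerases alpha, delta and epsilon copy the strands behind it. Many of these genes are transcribed in a wave at the G1 to S transition under E2F factors, and dividing myoblasts pass through that wave in each cell cycle.

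The libraries held 19604971 to 26226949 counted reads. Uqcrfs1 stood at 2.60 to 3.64% of the floxed mean in the 6 knockout libraries, as their labels call for. All 8 myoblast markers were detected, with summed levels of 4178 to 4437 CPM in knockout oxybutynin, 3450 to 4313 CPM in knockout vehicle and 3381 to 3561 CPM in floxed vehicle libraries, where CPM is the read count relative to the TMM-scaled library size. In knockout vehicle against floxed vehicle the markers moved both ways, with Pax7 (0.26, adjusted p = 0.00416), Des (0.43, 0.000923) and Ncam1 (0.34, 0.000654) higher and Cdh15 (-0.88, 9.23e-07), Myog (-0.55, 2.27e-05) and Myf5 (-0.39, 0.00103) lower. Other totals moved with the groups. Mitochondrially encoded RNA took 1.58 to 2.12% of counts in knockout oxybutynin, 1.946 to 2.71% in knockout vehicle and 3.07 to 3.14% in floxed vehicle libraries, and the small RNA Rn7sk took 3.36 to 3.98%, 2.36 to 3.59% and 1.93 to 2.10% in the same order. Summed markers of smooth muscle were at 1061 to 1212, 852 to 1148 and 495 to 543 CPM in that order. They were carried by Acta2, with Myh11 under 0.84 CPM. The 6 fibroblast markers, with Lum and Tcf21 at 0, were at 54.5 to 74.4, 51.2 to 67.4 and 22.8 to 26.1 CPM. That sum was carried by Col1a1, with means of 58.9, 54.4 and 21.2 CPM in the same order. In knockout vehicle against floxed vehicle Thy1 also rose (means 1.74 and 0.451 CPM, adjusted p = 5.56e-05). Pdgfra did not pass there (0.26, adjusted p = 0.281). The 4 leukocyte markers, carried by Cd68, were at 12.3 to 13.1, 10.8 to 12.5 and 5.21 to 5.96 CPM. Knockout vehicle replicate 2 stood apart from its group (mitochondrial share 2.71%), and knockout vehicle replicate 3 lay close to the oxybutynin libraries. The part of these differences in the results below was not tested, and in bulk RNA fewer cells in S phase and less RNA per cell cannot be told apart.

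Knockout vehicle cells had less RNA for a subset of the replication genes, led by Ccne2, Pola1, Clspn and Rfc1, and more for a few, led by Cdt1 and E2f1. Between knockout vehicle and floxed vehicle, 23 of the 51 genes fell and 6 rose at an adjusted p under 0.05 (edgeR quasi-likelihood test, Benjamini-Hochberg over all 15720 genes), and 22 did not pass. The share of all tested genes called in this comparison was 63.3%, with 33.4% lower and 29.9% higher, against 56.9% of the replication genes called, with 45.1% lower and 11.8% higher. The median log2 fold change was -0.20 over the 51 genes and -0.01 over all tested genes. At least 2-fold lower calls numbered 6, for Ccne2, Pola1, Clspn, Rfc1, Cdc7 and E2f8 (11.8% of the genes, against 15.8% of all tested genes), and no member rose that far (8.62% of all tested genes did). The 3 knockout vehicle libraries lay outside the range of the 3 floxed libraries for 32 of the genes (62.7%, against 66.7% of all tested genes), 26 below it (51.0% against 35.5%) and 6 above it (11.8% against 31.2%). The 6 higher calls became 3 (Cdt1, Pold2 and E2f1) when any of the 3 floxed libraries was left out. Leaving out single libraries ended the calls of Mcm2, Pold1 and Rfc4 among the higher genes, and of Gmnn and Gins1 among the lower ones, for at least 1 library each. It added Gins2 (adjusted p = 0.00636, higher) and Pole2 (0.00919, lower) without knockout vehicle replicate 2, and Mcm5 (0.0101), Mcm7 (0.0325) and Pola2 (0.0439), all lower, without knockout vehicle replicate 3.

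**Figure D1:**
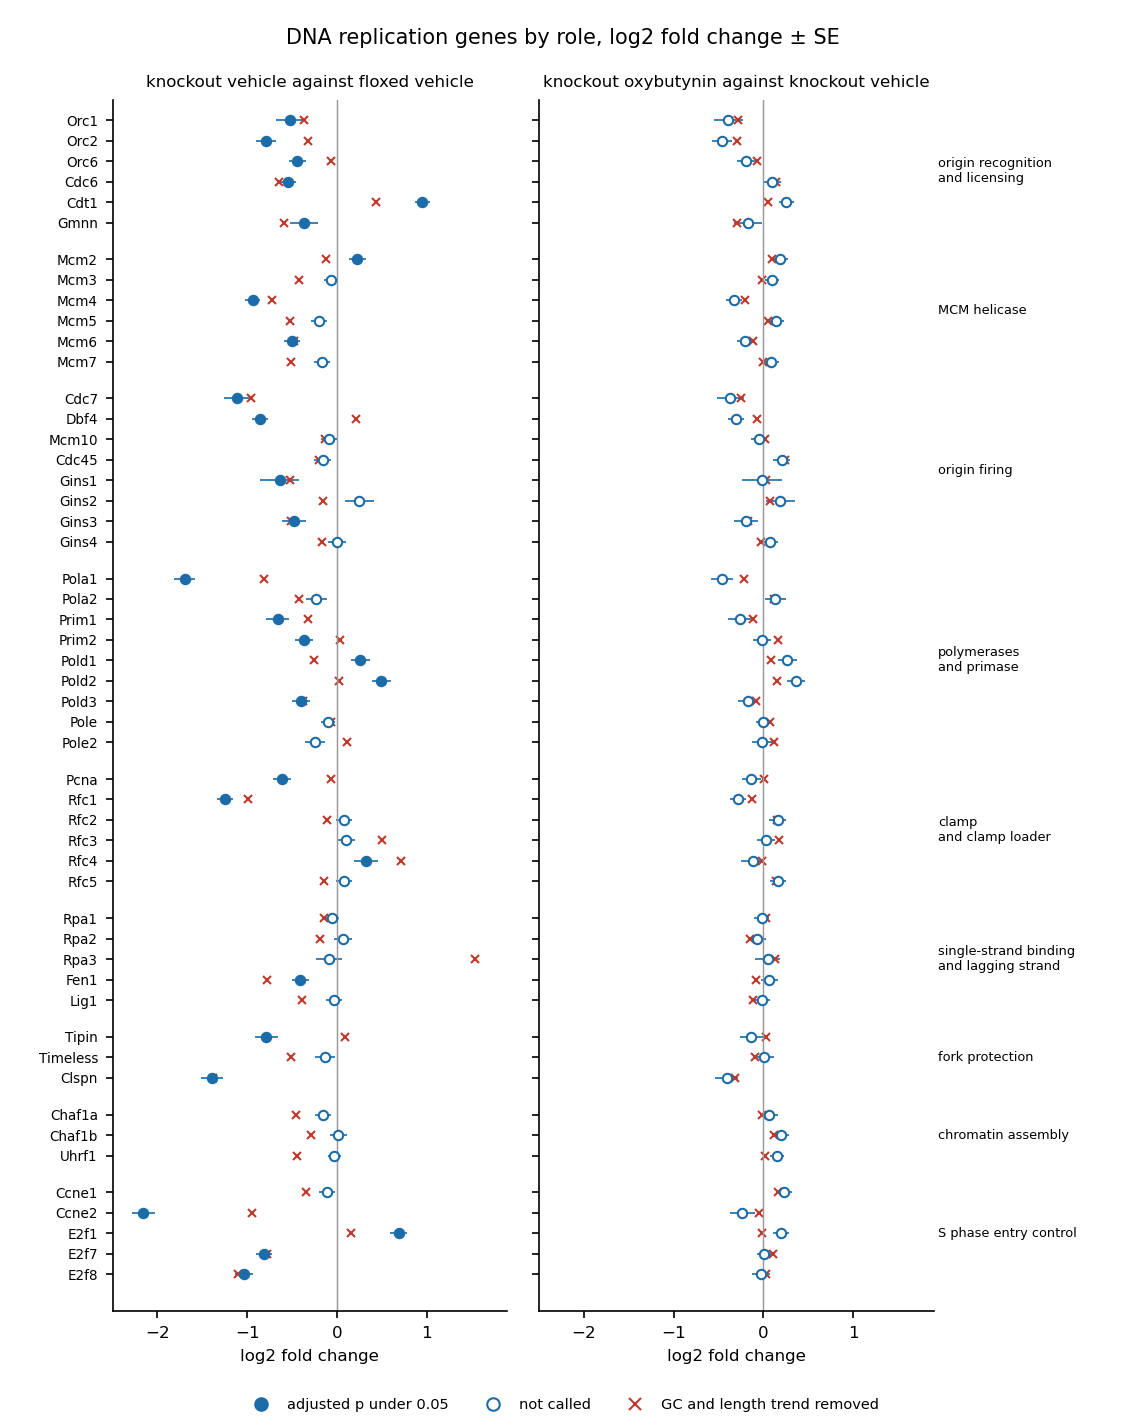
Log2 fold change ± SE of the 51 genes by role (rows), for knockout vehicle against floxed vehicle (left) and knockout oxybutynin against knockout vehicle (right). Filled points passed an adjusted p under 0.05 and open points did not; crosses show the value with the GC and length trend removed. The left panel reaches -2.16 at Ccne2 and 0.95 at Cdt1, and the right panel holds no filled point.

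The fold changes followed the base composition of the transcripts. Exonic GC content, computed from the annotated transcripts, ran from 35% in Rpa3 to 60.2% in Pold1, with a median of 48.4%. Across the 51 genes the log2 fold change of knockout vehicle over floxed vehicle had a Spearman correlation of 0.64 with GC content, and across 12976 protein-coding genes it was 0.56; genes share the same libraries and are not independent. Among the 25 genes with GC content below the median, 19 fell and 1 rose (median log2 fold change -0.61), and among the 26 at or above it 4 fell and 5 rose (median -0.04). Protein-coding genes as a whole had medians of -0.82, -0.27, 0.12, 0.31 and 0.42 in bins centred on GC contents of 41, 45, 49, 53 and 57%. The share of all genes called below and above that GC content was not computed, so these counts are not a trait of the replication genes. A fit with the trend of each library on GC content and exon length removed, as offsets fitted across all tested genes without regard to group, called 30 members lower and 5 higher. Those 30 held 18 of the 23 lower calls and added 12, and the 5 higher calls held Cdt1 and Rfc4 and added Dbf4, Rfc3 and Rpa3. The median of the 51 genes was then -0.33, against -0.03 over all tested genes, of which 30.3% were lower and 28% higher. Both values are given below for each called gene that lost its call with the GC and length trend removed. Orc1 (-0.30, adjusted p = 0.0627) and Prim1 (-0.26, 0.0546) kept their lower calls there and lost them with the GC trend alone removed. Genes called only with the GC and length trend removed included Cdc45 (-0.20, adjusted p = 0.0482), Pola2 (-0.42, 0.00119), Lig1 (-0.39, 0.000248), Timeless (-0.51, 0.000149) and Rfc3 (0.50, 7.63e-05). Of genes called in neither fit, Gins2, Rfc2, Rfc5 and Rpa2 turned to -0.16, -0.11, -0.14 and -0.19, and Pole2 to 0.12 (adjusted p = 0.335, 0.202, 0.115, 0.0689 and 0.286).

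**Figure D2:**
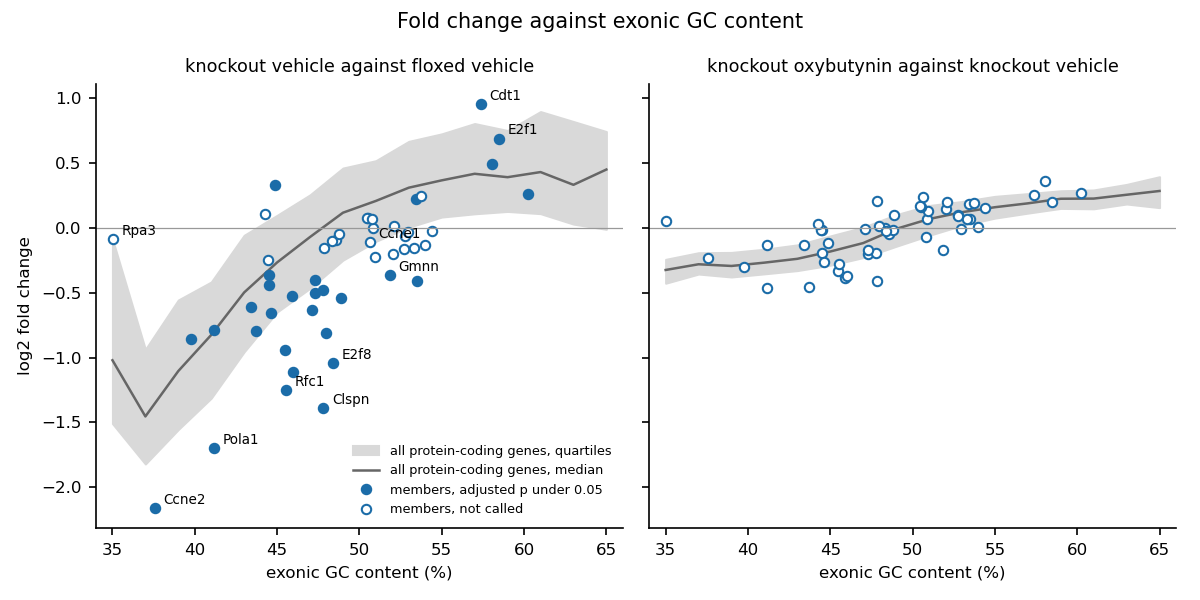
Log2 fold change against exonic GC content (%), for knockout vehicle against floxed vehicle (left) and knockout oxybutynin against knockout vehicle (right). Points are the 51 genes, filled where adjusted p was under 0.05; the line and band are the median and quartiles of all protein-coding genes in bins of GC content. In the left panel Clspn and E2f8 lie below the band at GC contents of 47.8 and 48.4%, and Cdt1 lies above it at 57.4%.

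The promoters of these genes were searched for an E2F-type motif, since E2F factors are the best known regulators of the set. The search used the window of 250 bases before to 50 bases after the start in RefSeq (GRCm38.p6) and the forms TTTCCCGC, TTTCGCGC, TTTGCCGC and TTTGGCGC on both strands, which may overlap each other. A promoter was at hand for 41 of the 51 genes (none for Ccne2, Gins1, Gins2, Gins4, Gmnn, Mcm4, Pole, Prim2, Rfc2 and Tipin), and 17 of these (41.5%) held the motif. Of all 27025 genes with a promoter 2.6% held it, and of 17491 protein-coding genes 3.29%. It was in 8 of the 17 promoters of genes lower in knockout vehicle (47.1%), in 2 of the 6 of genes higher (33.3%) and in 7 of the 18 of genes not called (38.9%). A match is a description of the letters and says nothing of binding.

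The windows below hold 60 bases around the first match before the start, 5′ to 3′ on the gene's strand, with the motif in capitals. The first 6 belong to genes lower in knockout vehicle and the last 2 to genes not called, to show that the same letters stood in front of both. They lie at chrX:93632260-93632319 on the minus strand for Pola1, chr4:108579394-108579453 on the plus strand for Orc1, chr11:98907987-98908046 on the plus strand for Cdc6, chr1:128359782-128359841 on the minus strand for Mcm6, chr10:110745215-110745274 on the plus strand for E2f7, chr8:95633492-95633551 on the plus strand for Gins3, chr8:75109330-75109389 on the plus strand for Mcm5 and chr5:138172015-138172074 on the minus strand for Mcm7.
Pola1: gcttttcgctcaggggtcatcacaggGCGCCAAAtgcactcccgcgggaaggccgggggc
Orc1: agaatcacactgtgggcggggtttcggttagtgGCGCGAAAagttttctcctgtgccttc
Cdc6: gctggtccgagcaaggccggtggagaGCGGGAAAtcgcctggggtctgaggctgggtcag
Mcm6: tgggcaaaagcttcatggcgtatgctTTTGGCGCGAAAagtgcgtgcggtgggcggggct
E2f7: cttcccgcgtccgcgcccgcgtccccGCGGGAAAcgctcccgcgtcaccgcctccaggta
Gins3: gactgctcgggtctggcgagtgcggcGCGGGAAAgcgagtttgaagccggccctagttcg
Mcm5: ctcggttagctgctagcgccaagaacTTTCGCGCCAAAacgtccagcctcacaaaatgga
Mcm7: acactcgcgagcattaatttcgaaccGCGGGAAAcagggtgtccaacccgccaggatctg
In Mcm5 and Mcm6 the capitals run on because matches on both strands overlap. The match began 138 bases before the start in both Pola1 and Cdc6, and 27 bases before it in Orc1.

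Among the 6 genes of origin recognition and licensing, 5 fell in knockout vehicle cells and Cdt1 rose, so the loading factor and its inhibitor moved apart. Cdt1 (chr8:122568015-122573554, plus strand, GRCm38) brings the MCM helicase to the origin recognition complex. It had 158, 146 and 149 CPM in knockout oxybutynin libraries, 122, 115 and 142 CPM in knockout vehicle libraries, and 66.2, 67.3 and 62.5 CPM in floxed vehicle libraries. All knockout libraries lay above all floxed ones, and knockout vehicle exceeded floxed vehicle 1.94-fold (log2 fold change 0.95 ± 0.09 SE, adjusted p = 4.49e-08). With the GC and length trend removed it was 0.44 ± 0.06 (adjusted p = 1.02e-05). Gmnn, geminin, which binds and blocks Cdt1, was near the low end of the set at 4.04, 3.50 and 3.82 CPM in knockout oxybutynin, 4.80, 3.97 and 4.05 CPM in knockout vehicle and 5.26, 6.23 and 4.98 CPM in floxed vehicle libraries. Its fall in knockout vehicle was small and just passed (log2 fold change -0.37 ± 0.15, adjusted p = 0.0482); it ended under DESeq2 (adjusted p = 0.143), with RLE or total-count scaling (0.0563 and 0.0727), with no filter on low counts (0.17), in a fit of the 2 groups alone (0.0978), and when any 1 of 7 of the 9 libraries was left out (up to 0.222, without floxed replicate 2). It was -0.59 ± 0.14 with the GC and length trend removed (adjusted p = 0.00185).

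The log2 ratio of Cdt1 to Gmnn put the opposed moves into 1 value per library. It was 4.67, 4.86 and 5.14 in knockout vehicle and 3.65, 3.43 and 3.65 in floxed vehicle libraries, with means of 4.89 ± 0.236 and 3.58 ± 0.125 (SD, n = 3 each). The groups did not overlap, and the difference of 1.31 gave an exact two-sided permutation p of 0.1, the smallest that 3 against 3 libraries can give (0.12 adjusted over 6 ratio tests). The difference was 1.02 with the GC and length trend removed.

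**Figure D3:**
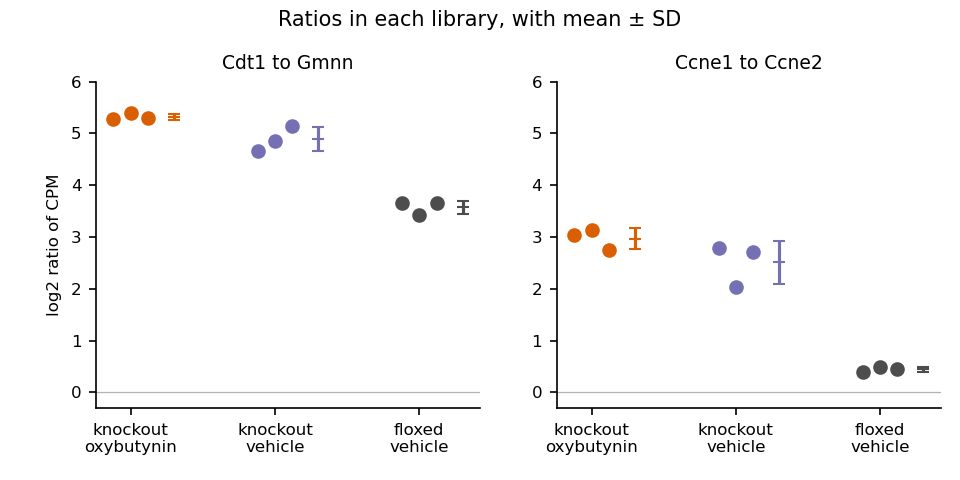
Log2 ratio of CPM of Cdt1 to Gmnn (left) and of Ccne1 to Ccne2 (right) in each library (points), with the mean ± SD of 3 libraries beside them. In both panels the floxed vehicle libraries lie below every knockout library, at means of 3.58 and 0.449.

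Orc2, a subunit of the origin recognition complex, had 26.7, 24.3 and 31.2 CPM in knockout oxybutynin, 36.0, 43.3 and 33.4 CPM in knockout vehicle and 63.4, 70.6 and 61.4 CPM in floxed vehicle libraries. The 3 groups did not overlap, and Orc2 fell 1.73-fold in knockout vehicle relative to floxed vehicle (log2 fold change -0.79 ± 0.11, adjusted p = 8.24e-06). With the GC and length trend removed Orc2 was at -0.33 ± 0.08 (adjusted p = 0.00165). Nif3l1, on the opposite strand, overlaps 29.8% of the Orc2 exons and was itself higher in knockout vehicle cells (0.28 ± 0.10, adjusted p = 0.0191). Whether counting used strand is not stated in these sources, so reads of the overlap cannot be told apart. Cdc6, the ATPase that joins Cdt1 in loading, had 26.2, 25.4 and 25.8 CPM in knockout oxybutynin, 24.7, 22.9 and 24.5 CPM in knockout vehicle and 35.7, 37.7 and 31.7 CPM in floxed vehicle libraries (log2 fold change of knockout vehicle over floxed vehicle -0.54 ± 0.09, adjusted p = 7.18e-05). The other subunits Orc1 (-0.52 ± 0.15, adjusted p = 0.00678) and Orc6 (-0.44 ± 0.10, adjusted p = 0.000847) fell as well. The call for Orc6 ended with the GC and length trend removed (-0.06 ± 0.08, adjusted p = 0.491).

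The 6 subunits of the MCM helicase, which form a ring with 1 copy of each, did not move together. Mcm4 and Mcm6 fell in knockout vehicle cells, Mcm2 rose, and Mcm3, Mcm5 and Mcm7 did not pass. Mcm4 (chr16:15623897-15637400, minus strand, GRCm38) had 65.8, 65.4 and 64.4 CPM in knockout oxybutynin, 89.2, 85.4 and 71 CPM in knockout vehicle and 153, 162 and 156 CPM in floxed vehicle libraries. That is 1.92-fold lower in knockout vehicle than in floxed vehicle cells (log2 fold change -0.94 ± 0.09, adjusted p = 5.24e-08), with no overlap between any of the groups. Mcm6 had 71.7, 72.0 and 71.3 CPM in knockout oxybutynin, 92.6, 82.8 and 72.0 CPM in knockout vehicle and 114, 120 and 116 CPM in floxed vehicle libraries. It was lower in all knockout libraries than in any floxed one (knockout vehicle over floxed vehicle -0.50 ± 0.09, adjusted p = 8.62e-05).

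Mcm2 had 149, 140 and 132 CPM in knockout oxybutynin, 127, 105 and 139 CPM in knockout vehicle and 103, 104 and 111 CPM in floxed vehicle libraries. Its call as higher in knockout vehicle was close to the threshold and its groups overlapped (log2 fold change 0.23 ± 0.09, adjusted p = 0.0455). The call ended without any 1 of 6 libraries (adjusted p up to 0.172, without knockout vehicle replicate 3), and with the GC and length trend removed the value turned to -0.12 ± 0.06 (adjusted p = 0.126). Mcm3 (-0.07), Mcm5 (-0.20) and Mcm7 (-0.17) had adjusted p of 0.457, 0.0507 and 0.103 as deposited. With the trend removed they were at -0.42, -0.52 and -0.51 and all 3 passed as lower (adjusted p = 4.31e-05, 2.98e-06 and 2.64e-06), so that 5 of the 6 subunits were then called lower.

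Per kilobase of exon the helicase subunits lay closer together in knockout cells. The length was that of all annotated exons of a gene merged over its transcripts. Rankings and spreads of subunits therefore depend on which transcripts are annotated. In floxed vehicle cells Mcm4 was the most abundant at 43.7 ± 1.34 CPM per kb and Mcm2 the least at 15.2 ± 0.63 CPM per kb, a spread of 2.87-fold. Knockout oxybutynin cells spanned 1.93-fold, between Mcm7 at 29.7 and Mcm6 at 15.4 CPM per kb, and knockout vehicle cells 1.83-fold, between Mcm7 at 27.9 and Mcm5 at 15.2 CPM per kb. Mcm4 thus stood at 22.8 ± 2.67 CPM per kb in knockout vehicle cells, inside the range of its partners. These spreads are descriptions without the GC and length trend removed, and no test was made of them.

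**Figure D4:**
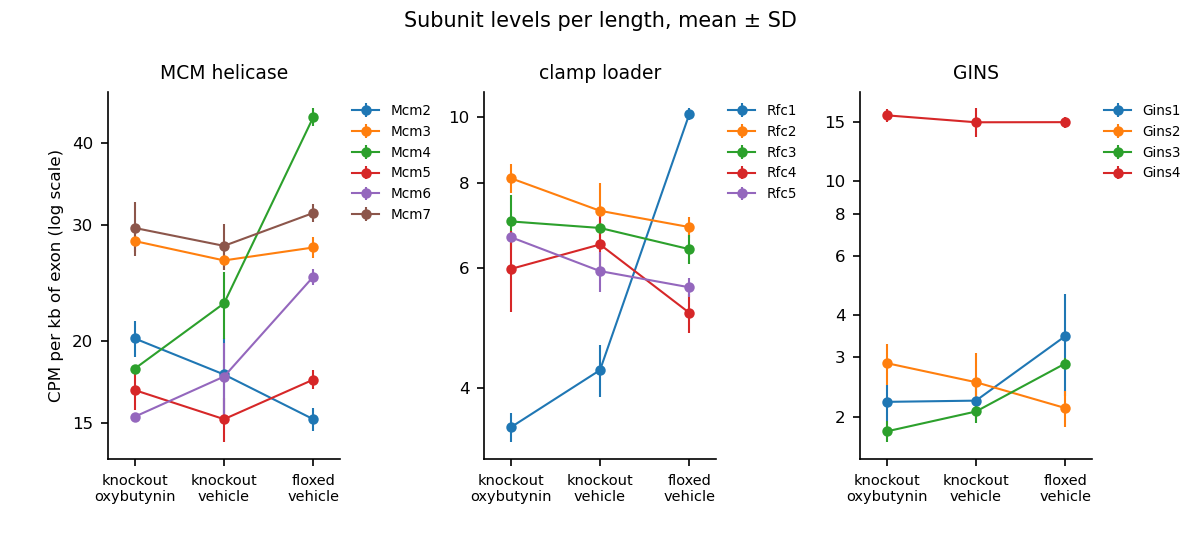
Level of each subunit in CPM per kilobase of exon (log axis, mean ± SD, n = 3 libraries per group) for the MCM helicase, the clamp loader and GINS. Lines join the same subunit across groups; Mcm4 at 43.7 and Rfc1 at 10.1 CPM per kb lead their complexes in floxed vehicle cells and not in knockout cells.

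Of the 8 origin firing genes, 4 fell in knockout vehicle cells and none rose. Cdc7, the kinase that phosphorylates the MCM ring, had 5.31, 6.41 and 5.89 CPM in knockout oxybutynin, 7.50, 9.20 and 6.03 CPM in knockout vehicle and 15.1, 17.0 and 16.9 CPM in floxed vehicle libraries. It was 2.16-fold lower in knockout vehicle cells (log2 fold change -1.11 ± 0.14, adjusted p = 2.62e-06) and stayed near that value with the trend removed (-0.95 ± 0.11, adjusted p = 1.54e-06). Dbf4, the regulatory subunit of the same kinase, had 26.4, 26.1 and 27.8 CPM in knockout oxybutynin, 34.5, 33.8 and 30.6 CPM in knockout vehicle and 60.1, 59.7 and 59.4 CPM in floxed vehicle libraries. None of the groups overlapped (knockout vehicle over floxed vehicle -0.86 ± 0.08, adjusted p = 1.22e-07). Dbf4 has a GC content of 39.8%, and with the GC and length trend removed its direction turned to 0.22 ± 0.09 (adjusted p = 0.0437), whereas Cdc7 kept its call. The 2 subunits thus went the same way in the counts as deposited and apart after that removal. The turned value of Dbf4 passed only narrowly. It was not called with the GC trend alone removed (0.21, adjusted p = 0.0546), nor in knockout oxybutynin against floxed vehicle with the GC and length trend removed (0.15, adjusted p = 0.166).

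Gins3, a subunit of the GINS complex that travels with the helicase, had 4.57, 5.27 and 4.85 CPM in knockout oxybutynin, 6.10, 5.27 and 5.47 CPM in knockout vehicle and 7.66, 8.12 and 7.60 CPM in floxed vehicle libraries (knockout vehicle over floxed vehicle -0.48 ± 0.13, adjusted p = 0.00445). Gins1 also passed at -0.64 ± 0.22 (adjusted p = 0.0161), with overlapping groups, and its call ended when floxed replicate 3 (-0.37, adjusted p = 0.157) or knockout vehicle replicate 3 (-0.56, adjusted p = 0.0729) was left out. The partners Gins2 (0.25, adjusted p = 0.189) and Gins4 (-0.00, adjusted p = 0.985) did not pass. Gse1, on the opposite strand, overlaps 67.3% of the Gins2 exons, so Gins2 is uncertain. Gins4 was the most abundant of the 4 per kilobase in each group, at 15.7, 15 and 15 CPM per kb in knockout oxybutynin, knockout vehicle and floxed vehicle cells. Cdc45 (-0.16, adjusted p = 0.158), the helicase partner, and Mcm10 (-0.09, adjusted p = 0.376), which helps to activate it, did not pass.

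All 4 members of the polymerase alpha and primase complex had negative log2 fold changes in knockout vehicle cells and 3 of them fell, while of the 3 measured subunits of polymerase delta 2 rose and 1 fell. Pola1 (chrX:93304767-93632155, minus strand, GRCm38), the catalytic subunit that starts every new strand, had 11.7, 11.4 and 13.0 CPM in knockout oxybutynin, 14.1, 20.0 and 15.6 CPM in knockout vehicle and 55.6, 52.0 and 53.6 CPM in floxed vehicle libraries. It was 3.24-fold lower in knockout vehicle than in floxed vehicle cells (log2 fold change -1.70 ± 0.12, adjusted p = 1.41e-09) and -0.81 ± 0.08 with the GC and length trend removed (adjusted p = 8.82e-08). Its GC content is 41.2%. Prim1, the catalytic primase subunit, had 11.3, 8.58 and 9.43 CPM in knockout oxybutynin, 13.2, 12.2 and 9.80 CPM in knockout vehicle and 18.5, 18.3 and 18.6 CPM in floxed vehicle libraries (-0.66 ± 0.13, adjusted p = 0.000227). The large primase subunit Prim2 fell by 0.37 ± 0.10 on the log2 scale (adjusted p = 0.00393), which turned to 0.03 ± 0.10 (adjusted p = 0.8) with the trend removed. Pola2, the accessory subunit of polymerase alpha, was at -0.23 ± 0.11 (adjusted p = 0.0924).

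Polymerase delta makes the lagging strand. Its subunit Pold2 had 107, 96.0 and 100.1 CPM in knockout oxybutynin, 73.5, 67.3 and 94.4 CPM in knockout vehicle and 54.0, 57.0 and 55.8 CPM in floxed vehicle libraries. The groups did not overlap, and knockout vehicle was 1.41-fold above floxed vehicle (log2 fold change 0.50 ± 0.11, adjusted p = 0.00057). The catalytic subunit Pold1 rose by less (0.26 ± 0.11, adjusted p = 0.0416), a call that ended without knockout vehicle replicate 3 (adjusted p = 0.2), knockout oxybutynin replicate 2 or any floxed library. Neither held with the trend removed, where Pold2 was at 0.02 ± 0.07 (adjusted p = 0.821) and Pold1 was called lower at -0.26 ± 0.07 (adjusted p = 0.00247); their GC contents are 58.1 and 60.2%. Pold3, the third subunit measured here, fell (-0.40 ± 0.10, adjusted p = 0.00261). For polymerase epsilon of the leading strand, Pole (-0.10, adjusted p = 0.285) and Pole2 (-0.25, adjusted p = 0.0599) did not pass.

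In the clamp loader a single subunit fell. Rfc1 (chr5:65261850-65335670, minus strand, GRCm38), the large subunit that opens the sliding clamp, had 21, 20.0 and 22.1 CPM in knockout oxybutynin, 23.9, 28.1 and 24.6 CPM in knockout vehicle and 59.8, 62.1 and 60.2 CPM in floxed vehicle libraries. None of the groups overlapped, and Rfc1 was 2.38-fold lower in knockout vehicle than in floxed vehicle cells (log2 fold change -1.25 ± 0.09, adjusted p = 3e-09; -1.0 ± 0.07 with the GC and length trend removed, adjusted p = 2.69e-09). None of the small subunits was called lower. Rfc4 had 10.6, 8.18 and 8.72 CPM in knockout oxybutynin, 11.1, 9.20 and 9.55 CPM in knockout vehicle and 7.31, 8.24 and 8.14 CPM in floxed vehicle libraries (0.33 ± 0.13, adjusted p = 0.0388). That call ended without knockout vehicle replicate 1 or any floxed library (adjusted p up to 0.136), and Eif4a2, on the opposite strand, overlaps 12.7% of the Rfc4 exons. Rfc2 (0.08), Rfc3 (0.10) and Rfc5 (0.08) had adjusted p of 0.459, 0.358 and 0.462. Per kilobase, Rfc1 was the highest of the 5 subunits in floxed vehicle cells at 10.1 ± 0.200 CPM per kb and the lowest in knockout oxybutynin (3.50 ± 0.173) and knockout vehicle cells (4.24 ± 0.374).

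Pcna, the sliding clamp itself, had 50.4, 50.1 and 53.0 CPM in knockout oxybutynin, 67.4, 52.0 and 48.9 CPM in knockout vehicle and 84.9, 86.3 and 85.3 CPM in floxed vehicle libraries. It was 1.52-fold lower in knockout vehicle than in floxed vehicle cells (log2 fold change -0.61 ± 0.10, adjusted p = 5.73e-05). At a GC content of 43.4% that call ended with the trend removed (-0.07 ± 0.09, adjusted p = 0.546). The annotation holds the pseudogenes Pcna-ps1 and Pcna-ps2, which could share reads with it.

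Of the 5 single-strand binding and lagging strand genes, Fen1 fell and none rose. Fen1, the nuclease that trims Okazaki fragments, had 33.5, 32.6 and 31.8 CPM in knockout oxybutynin, 33.4, 27.6 and 32.7 CPM in knockout vehicle and 38.7, 42.8 and 42.7 CPM in floxed vehicle libraries (-0.41 ± 0.09, adjusted p = 0.00117). Genes on the opposite strand, mainly Gm10143, overlap most of the Fen1 exons, so Fen1 is uncertain, although Gm10143 itself had at most 10 reads in any library. The single-strand binding subunits Rpa1 (-0.05), Rpa2 (0.07) and Rpa3 (-0.09) and the ligase Lig1 (-0.03) had adjusted p of 0.591, 0.574, 0.602 and 0.758. Rpa3 has the lowest GC content of the set (35%), and with the trend removed its value was 1.54 ± 0.19 (adjusted p = 2.04e-06), although its CPM averaged 5.70 ± 0.129 in knockout vehicle and 6.07 ± 0.763 in floxed vehicle libraries.

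Of the 3 fork protection genes, Clspn and Tipin fell in knockout vehicle cells. Claspin, the product of Clspn (chr4:126556935-126593903, plus strand, GRCm38), is needed for the activation of the checkpoint kinase Chk1 at stalled forks. Clspn had 12.6, 10.5 and 10.5 CPM in knockout oxybutynin, 17.4, 15.3 and 12.1 CPM in knockout vehicle and 40.5, 37.8 and 38.9 CPM in floxed vehicle libraries. Every knockout library lay below every floxed library, 2.62-fold lower in knockout vehicle (log2 fold change -1.39 ± 0.12, adjusted p = 2.58e-08), and the value was the same to within its error with the trend removed (-1.38 ± 0.10, adjusted p = 4.05e-09). Tipin had 10.2, 11.3 and 11.7 CPM in knockout oxybutynin, 14.5, 12 and 9.96 CPM in knockout vehicle and 22.1, 20.2 and 20.5 CPM in floxed vehicle libraries. Its fall (-0.79 ± 0.13, adjusted p = 3.29e-05) ended and turned to 0.09 ± 0.12 with the trend removed (adjusted p = 0.541), at a GC content of 41.1%. Its partner Timeless was at -0.13 ± 0.11 (adjusted p = 0.321).

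None of the 3 chromatin assembly genes passed. Chaf1a (-0.15, adjusted p = 0.151) and Chaf1b (0.02, adjusted p = 0.891) encode subunits of the histone chaperone CAF-1, and Uhrf1 (-0.03, adjusted p = 0.774), which brings maintenance methylation to the fork, had the highest mean CPM of the 51 genes, not corrected for length, at 157 ± 9.08 CPM in knockout vehicle and 160 ± 2.41 CPM in floxed vehicle libraries. Ubxn6, on the opposite strand, overlaps 52.5% of the Chaf1a exons. With the GC and length trend removed all 3 were called lower, at -0.46, -0.29 and -0.45 (adjusted p = 9.19e-05, 0.00319 and 2.01e-06).

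Among the genes that set S phase entry, the E cyclins separated. Ccne1 and Ccne2 encode cyclins E1 and E2, which activate Cdk2. Ccne2 (chr4:11191351-11204779, plus strand, GRCm38) had 7.75, 7.28 and 8.99 CPM in knockout oxybutynin, 7.78, 11.5 and 8.87 CPM in knockout vehicle and 44.0, 39.8 and 42.1 CPM in floxed vehicle libraries. Its 4.46-fold lower level in knockout vehicle than in floxed vehicle cells was the furthest from 1 in the set (log2 fold change -2.16 ± 0.13, adjusted p = 3.11e-10). With a GC content of 37.6% it moved to -0.95 ± 0.09 with the trend removed (adjusted p = 5.37e-08). Ints8, on the opposite strand, overlaps 17.4% of the Ccne2 exons and was itself lower in knockout vehicle cells (-1.50 ± 0.09, adjusted p = 5.2e-10). Ccne1 had 63.6, 63.6 and 60.1 CPM in knockout oxybutynin, 53.7, 47.2 and 58.3 CPM in knockout vehicle and 58.0, 56.3 and 57.5 CPM in floxed vehicle libraries. The knockout vehicle and floxed vehicle ranges overlapped (-0.11 ± 0.09, adjusted p = 0.283), and with the trend removed Ccne1 passed as lower (-0.35 ± 0.07, adjusted p = 0.000282).

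The log2 ratio of Ccne1 to Ccne2 was 2.79, 2.04 and 2.72 in knockout vehicle and 0.398, 0.50 and 0.448 in floxed vehicle libraries, with means of 2.51 ± 0.414 and 0.449 ± 0.0509 (SD, n = 3 each). The groups did not overlap (difference 2.06, exact two-sided permutation p = 0.1, the smallest possible, 0.12 adjusted over 6 tests). The difference was 0.59 with the GC and length trend removed.

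The E2F members also moved in opposite directions. E2f1, an activator of S phase genes, had 61.8, 54.3 and 59.1 CPM in knockout oxybutynin, 52.5, 45.3 and 54.5 CPM in knockout vehicle and 30.6, 32.2 and 31.7 CPM in floxed vehicle libraries. All knockout libraries lay above the floxed ones, 1.61-fold in knockout vehicle (log2 fold change 0.69 ± 0.09, adjusted p = 5.06e-06). The call ended with the GC and length trend removed (0.16 ± 0.07, adjusted p = 0.0667), and it stayed with the GC trend alone removed. E2f7 and E2f8 encode the atypical factors that repress E2F targets later in S phase. E2f8 had 40.2, 46.5 and 39.1 CPM in knockout oxybutynin, 48.9, 41.6 and 37.8 CPM in knockout vehicle and 91, 84.9 and 87.6 CPM in floxed vehicle libraries, 2.06-fold lower in knockout vehicle (-1.04 ± 0.10, adjusted p = 9.09e-08). E2f7 had 26.0, 28.8 and 28.8 CPM in knockout oxybutynin, 29.2, 26.8 and 26.9 CPM in knockout vehicle and 48.5, 49.2 and 47.9 CPM in floxed vehicle libraries (-0.81 ± 0.09, adjusted p = 3.44e-07). Both stayed called with the trend removed, E2f8 and E2f7 in that order (-1.10 ± 0.08 and -0.78 ± 0.07, adjusted p = 3.04e-09 and 5.65e-08).

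**Figure D5:**
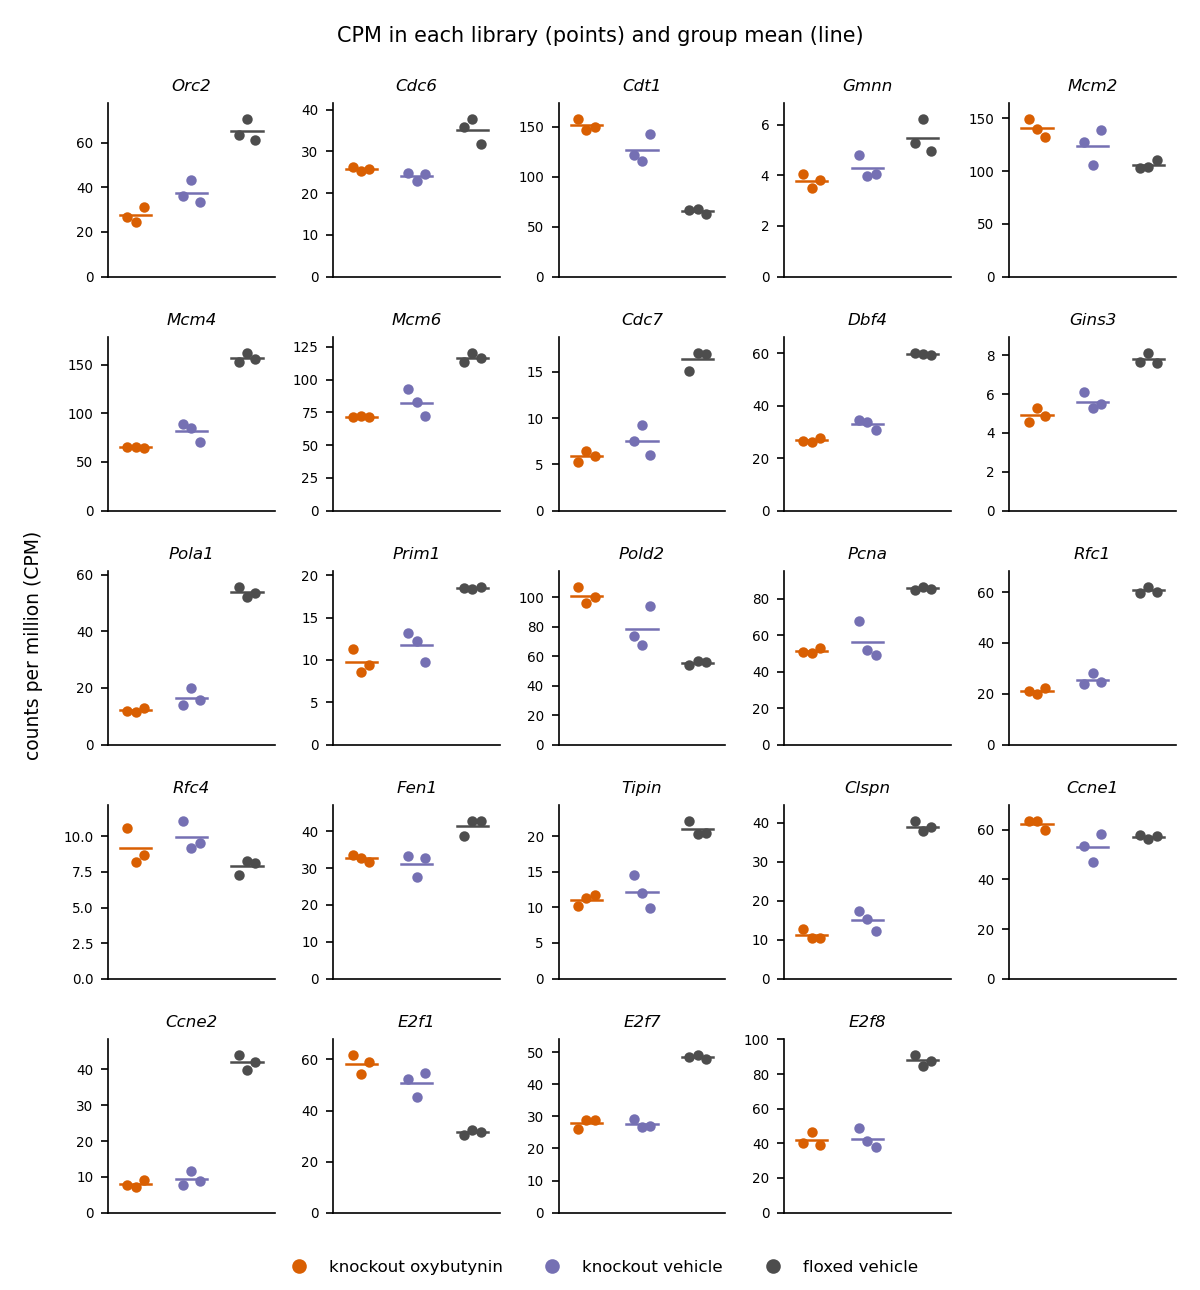
CPM of 24 replication genes in each library (points) with the group mean (line), from 0 on each axis. In panels such as Ccne2, Pola1, Rfc1 and Clspn both knockout groups lie below the floxed vehicle libraries, and in Cdt1 and E2f1 above them. In these panels the oxybutynin points lie nearer to the knockout vehicle points than to the floxed ones. In Pola1, Rfc1 and Cdt1 they do not overlap the knockout vehicle points.

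Oxybutynin left the replication genes of knockout cells without a called change in the edgeR fit of all libraries. Between knockout oxybutynin and knockout vehicle, 0 of the 51 genes passed in edgeR (0.0127% of all tested genes did, 2 of 15720, of which 1 was higher and 1 lower, 0.00636% each, both at least 2-fold), 16 had an unadjusted p under 0.05 (26% of all tested genes), and limma-voom called 0 (17 unadjusted). DESeq2 called 7 of the 51, against 11.3% of the genes it tested: Pold2 higher and Orc2, Mcm4, Dbf4, Pola1, Rfc1 and Clspn lower. The smallest edgeR adjusted p of a member was 0.0663, for Orc2 (log2 fold change -0.46 ± 0.11). Pola1 was at -0.46 ± 0.12 (adjusted p = 0.0725), Mcm4 at -0.33 ± 0.09 (0.0731), Pold2 at 0.37 ± 0.10 (0.0781) and Dbf4 at -0.30 ± 0.09 (0.0782). The median of the 51 genes was -0.01. The oxybutynin libraries did not overlap the vehicle libraries for 15 genes (29.4%, against 22.1% of all tested genes). Of these, 9 lay higher (17.6% against 10.5%), namely Cdc6, Cdt1, Mcm3, Cdc45, Pold2, Rfc5, Chaf1b, Uhrf1 and Ccne1, and 6 lower (11.8% against 11.6%), namely Orc2, Orc6, Mcm4, Dbf4, Pola1 and Rfc1.

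The count of 0 also ended with no filter on low counts, where 5 of the 51 genes were called (3.65% of all tested genes), and when knockout vehicle replicate 3 was left out. Without that library, 20 of the 51 genes were called, against 26% of all tested genes. The 8 higher were Cdt1, Mcm2, Pold1, Pold2, Rfc2, Uhrf1, Ccne1 and E2f1, with GC contents of 50.5 to 60.2%. The 12 lower were Orc1, Orc2, Orc6, Mcm4, Mcm6, Cdc7, Dbf4, Pola1, Prim1, Pold3, Rfc1 and Clspn, with GC contents of 39.8 to 47.8%. In the fit with all libraries, the Spearman correlation of the log2 fold change with GC content was 0.73 across the 51 genes and 0.70 across protein-coding genes. With the GC and length trend removed no member was called and no gene of the 15720 was, and the values of Orc2, Pola1, Mcm4 and Pold2 were -0.29, -0.22, -0.21 and 0.15 (adjusted p = 0.157, 0.283, 0.189 and 0.333).

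The genes with the furthest changes in knockout vehicle cells had these values for oxybutynin over vehicle in knockout cells. Ccne2 was at -0.23 ± 0.14 (adjusted p = 0.287), Clspn at -0.41 ± 0.13 (0.0898), Rfc1 at -0.28 ± 0.09 (0.101), Cdc7 at -0.37 ± 0.15 (0.148) and E2f8 at -0.03 ± 0.10 (0.893). On the other side Cdt1 was at 0.26 ± 0.09 (0.101) and E2f1 at 0.20 ± 0.09 (0.175). None of these 7 values passed in this fit of all libraries, which does not show that the levels were equal. DESeq2 called Clspn and Rfc1 lower. Without knockout vehicle replicate 3, edgeR called Clspn, Rfc1 and Cdc7 lower and Cdt1 and E2f1 higher. The log2 ratio of Cdt1 to Gmnn was 5.29, 5.39 and 5.29 in knockout oxybutynin libraries (mean 5.32 ± 0.0573), above all 3 knockout vehicle libraries (difference 0.43, exact two-sided permutation p = 0.1, 0.12 adjusted). The ratio of Ccne1 to Ccne2 was 3.04, 3.13 and 2.74 (mean 2.97 ± 0.202) and overlapped knockout vehicle (difference 0.45, exact permutation p = 0.2).

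Knockout oxybutynin cells, set against the same floxed vehicle libraries, had 24 replication genes lower and 9 higher of 51. Among all tested genes 71.9% were called, with 36.9% lower and 35.1% higher. The higher genes were Cdt1 (1.21 ± 0.09), E2f1 (0.89 ± 0.09), Pold2 (0.86 ± 0.11), Pold1 (0.53 ± 0.11), Gins2 (0.44 ± 0.16), Mcm2 (0.41 ± 0.09), Rfc2 (0.24 ± 0.09), Rfc5 (0.24 ± 0.09) and Chaf1b (0.22 ± 0.09), with adjusted p between 1.51e-09 and 0.0443. That count of 9 became 5 without floxed replicate 1 or without knockout oxybutynin replicate 1, and 6 without floxed replicate 2, with Chaf1b, Rfc2 and Rfc5 among those lost each time. The groups did not overlap for 36 genes (70.6%, against 78.9% of all tested genes), 11 higher (21.6% against 38.9%) and 25 lower (49.0% against 40.1%). With the GC and length trend removed 29 genes were lower and 6 higher (31.3% and 29.6% of all tested genes). Lat2 and Wsb2, on the opposite strand, overlap 15.1% of the Rfc2 and 10.7% of the Rfc5 exons. In this comparison Wsb2 was itself higher (0.45 ± 0.09, adjusted p = 0.00022) and Lat2 lower (-0.92 ± 0.22, adjusted p = 0.0013). Reads of these overlaps cannot be told apart.

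Both comparisons use the floxed vehicle libraries, so their values are set side by side without a test of likeness. Against floxed vehicle, Ccne2 was at -2.39 ± 0.13 in knockout oxybutynin and -2.16 ± 0.13 in knockout vehicle cells. Pola1 was at -2.16 ± 0.12 and -1.70 ± 0.12, Clspn at -1.80 ± 0.12 and -1.39 ± 0.12, Rfc1 at -1.53 ± 0.09 and -1.25 ± 0.09, and Cdc7 at -1.48 ± 0.14 and -1.11 ± 0.14, in the same order of groups. Mcm4 stood at -1.27 ± 0.09 in knockout oxybutynin and -0.94 ± 0.09 in knockout vehicle cells, and Orc2 at -1.25 ± 0.11 and -0.79 ± 0.11. None of the oxybutynin differences between them passed in the edgeR fit of all libraries. As given above, DESeq2 called those of Pola1, Clspn, Rfc1, Mcm4 and Orc2 lower. These and Cdc7 were also called lower in edgeR without knockout vehicle replicate 3.

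Genes that work beside these were taken from lists of 74 genes in 6 groups, of which 73 could be tested (Pold4 had 0 counts in all libraries). In knockout vehicle over floxed vehicle, 48 of the 73 were lower and 6 higher, with a median of -0.49. Of all tested genes 33.4% were lower and 29.9% higher. With the GC and length trend removed, 38 of the 73 were lower and 13 higher, with a median of -0.27. Of all tested genes 30.3% were then lower and 28% higher. By list, the lower and higher counts with the trend removed were 6 and 4 for other origin factors, 13 and 1 for other fork and chromatin factors, 4 and 3 for deoxynucleotide supply, 6 and 2 for the E2F and RB family, 6 and 1 for S phase kinases and 3 and 2 for the checkpoint. For knockout oxybutynin over knockout vehicle, 0 of the 73 were called in edgeR, where 0.0127% of all tested genes were. Their median was -0.17. The groups did not overlap for 15 lower and 3 higher (11.6% and 10.5% of all tested genes). Unless the trend is named, what follows is for knockout vehicle against floxed vehicle as deposited. Single genes among these can lose or turn their call with the trend removed. Of 12 other origin factors 10 fell, among them Topbp1 (-0.91 ± 0.09, adjusted p = 1.01e-07), a scaffold of origin firing and of Atr activation, and the helicase Recql4 was the 1 that rose (1.25 ± 0.14, adjusted p = 3.88e-07). Of 22 other fork and chromatin factors 13 fell and 3 rose. These included Atad5 (-2.01 ± 0.11, adjusted p = 1.85e-10), which unloads the sliding clamp, its partner in deubiquitylation Usp1 (-1.54 ± 0.10, adjusted p = 4.96e-10), the topoisomerase Top1 (-1.82 ± 0.09, adjusted p = 4.89e-11) and Supt16 of the histone chaperone FACT (-1.60 ± 0.08, adjusted p = 5.77e-11).

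Of 8 genes of deoxynucleotide supply 7 fell, including the thymidylate synthase Tyms (-1.15 ± 0.10, adjusted p = 1.86e-08). In the E2F and RB family 8 of 13 fell. E2f2, an activator like E2f1, was at 7.54 CPM in knockout vehicle and 30.4 CPM in floxed vehicle cells on average (-2.01 ± 0.12, adjusted p = 4.68e-10) and at -2.49 ± 0.10 with the trend removed (adjusted p = 1.25e-12), whereas the pocket protein Rbl1 (-0.79 ± 0.09, adjusted p = 1.13e-06) was at -0.06 ± 0.07 (adjusted p = 0.542) with the trend removed. Of 9 S phase kinases and regulators 5 fell, including Ccna2, cyclin A2 (-0.75 ± 0.08, adjusted p = 5.18e-07), Skp2 (-0.84 ± 0.11, adjusted p = 3.84e-06) and Fbxw7 (-0.87 ± 0.11, adjusted p = 1.41e-06), the last being the ubiquitin ligase subunit that marks cyclin E. Of 9 checkpoint genes 5 fell and 2 rose. Chek1, the gene of Chk1, was at 7.93 CPM in knockout vehicle and 21.4 CPM in floxed vehicle cells on average (-1.43 ± 0.13, adjusted p = 5.22e-08; -0.86 ± 0.10 with the trend removed, adjusted p = 1.15e-06). Its activator Atr fell in the counts as deposited (-1.32 ± 0.14, adjusted p = 3.14e-07) and was called higher with the trend removed (0.24 ± 0.10, adjusted p = 0.0467), at a GC content of 37.3%.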

How the data were processed

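Total RNA of 9 libraries (2 µg input, NEBNext Ultra II Directional kit, per the labels' protocols) was sequenced, and the authors deposited 1 table of raw read counts per Ensembl gene. The tools listed are STAR 2.7.0e, DESeq2 1.26.0, FastQC, cutadapt and Trim Galore 0.6.0, with builds GRCm38 and mm10, per the submitters' processing notes. How reads were counted, with or without strand and on which gene models, these sources do not state. All 55536 IDs were in GENCODE M21 (GRCm38), which gave coordinates, exon lengths and GC content.

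Counts of all 9 libraries were fitted together in edgeR 4.0.16 under R 4.3.3 (filterByExpr, TMM, quasi-likelihood test, 6 residual degrees of freedom), with 3 comparisons and Benjamini-Hochberg adjustment over 15720 genes. Called means an adjusted p under 0.05. GC and length trends were natural splines with 5 degrees of freedom, and 6 tested genes without a sequence had none removed. DESeq2 1.42.0, limma 3.58.1, other scalings, filters, thresholds and subsets of libraries were alternatives. The scripts were tested on simulated data. The members and lists were chosen with earlier results of these data known. Values per library are given for up to 3 called members per role with the lowest adjusted p, and for 8 others whether called or not (Mcm2, Pcna, Cdc6, Cdt1, Gmnn, Ccne1, Ccne2 and E2f1); of the other lists, up to 4 called genes each could be named. Counting error limits genes near 4 CPM (about 100 reads per library), and replicates differed by more than counting noise in every group.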

Additional observations from a re-analysis of the deposited data

How the results depend on the processing

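The 23 lower and 6 higher calls of knockout vehicle against floxed vehicle became 14 and 2 when at least 1.5-fold change was asked (24.5 and 16.6% of all tested genes). The higher count was also 3 among protein-coding genes only (31% of these) and at an adjusted p under 0.01 (23.7%), and 3 to 7 when 1 library was left out (25.8 to 33.5%). For knockout oxybutynin against knockout vehicle, DESeq2 called 1 higher and 6 lower (1.86 and 9.46% of all), no filter on low counts 1 and 4 (0.92 and 2.73%), and leaving out 1 library 0 to 8 higher and 0 to 12 lower, where the high ends came without knockout vehicle replicate 3 (11.6 and 14.4%). For knockout oxybutynin against floxed vehicle the 9 higher calls were 5 at an adjusted p under 0.01 (29.6%), 3 at 1.5-fold (21.9%), and 5 to 10 with 1 library left out (31.5 to 36.7%). The cause of these differences was not tested.

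The difference in the log2 ratio of Cdt1 to Gmnn was 1.02 (knockout vehicle over floxed vehicle) and 1.37 (knockout oxybutynin over floxed vehicle) with the GC and length trend removed, and 1.55 for the last with 2 CPM added. The difference for Ccne1 to Ccne2 was 0.59 and 0.81 with the trend removed, and 2.26 for the last with 2 CPM added.

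Of members called in the reported fit or under the alternative, those that turned direction did so when base composition trends were removed. Values not called turned under other alternatives as well. In knockout vehicle against floxed vehicle, the log2 fold changes with the GC and length trend removed, then with the GC trend alone, were -0.12 and -0.12 for Mcm2, 0.22 and 0.21 for Dbf4, 0.031 and 0.053 for Prim2, -0.26 and -0.23 for Pold1, 1.54 and 1.5 for Rpa3, 0.091 and 0.10 for Tipin, and -0.29 and -0.26 for Chaf1b. In knockout oxybutynin against floxed vehicle they were -0.017 and -0.064 for Mcm2, -0.44 and -0.39 for Mcm3, 0.15 and 0.10 for Dbf4, -0.086 and -0.054 for Gins2, 0.19 and 0.19 for Prim2, -0.18 and -0.19 for Pold1, 0.24 and 0.32 for Pole2, 1.67 and 1.65 for Rpa3, 0.12 and 0.17 for Tipin, -0.17 and -0.16 for Chaf1b, and -0.43 and -0.41 for Uhrf1. Pcna was at 0.015 with the GC trend alone removed, and Ccne1 at -0.18 with both removed. The trend was fitted across all genes, so a real change that goes with GC content would be removed with it.

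No paired analysis was possible because the labels number the 9 libraries in 1 run and share no replicate number between groups. All 51 genes passed the filter on low counts, although counting error limits those at low levels. Gins1, the least abundant by mean CPM, had the widest standard error in each comparison. Permutation tests of 3 against 3 libraries cannot go below 0.1.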
